A study of Mus musculus with 72 samples.

Results

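Nicotinamide adenine dinucleotide (NAD) is built and spent in the liver by a small set of enzymes, and the transcripts of 9 of them were followed across genotype, microbial status and time of day. They were Nampt, Nmrk1, Naprt, Nadsyn1, Qprt, Nmnat1, Nadk, Nnmt and Sirt1, found by their symbols among the 55573 genes of the count table, and all 9 passed the filter on low counts in every comparison. Livers came from male C57BL/6 mice, of a C57BL/6J background by the study's methods, in 4 groups. SPF WT mice (Bmal1 fl/fl, specific pathogen free) and GF WT mice (Bmal1 fl/fl, germ free) carried loxP sites in Bmal1, listed as Arntl, whose protein drives the positive limb of the circadian clock. SPF LKO and GF LKO mice (L-Bmal1-KO) carried the same floxed allele with a Cre recombinase under the Albumin promoter, which is active in hepatocytes. The floxed allele was thus common to all groups, and whether other liver cells were recombined was not measured. No group held mice without the floxed allele or with Cre alone. By the study's methods the GF line was rederived and housed in isolators of a gnotobiotic facility, while SPF mice were bred in a vivarium. Differences by microbial status thus cannot be told apart from those of colony and housing. Each group had 3 mice at each of 6 zeitgeber times (ZT, hours after lights on), ZT2, ZT6, ZT10, ZT14, ZT18 and ZT22, giving 18 libraries per group and 72 in all. The labels gave no age. Unless another tool is named, adjusted p-values come from quasi-likelihood tests in edgeR, with the Benjamini-Hochberg method over all genes tested and calls at 0.05.

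Mammalian cells make NAD along 3 routes that end in the same dinucleotide. In the salvage route Nampt, usually its slowest step, turns nicotinamide into nicotinamide mononucleotide, and Nmrk1 makes the same mononucleotide from nicotinamide riboside. Nicotinic acid enters through Naprt, and breakdown of tryptophan enters through Qprt; both give nicotinic acid mononucleotide. Nmnat1, the nuclear adenylyltransferase, then makes the dinucleotide from either mononucleotide, and Nadsyn1 amidates the acid form to NAD. Nadk phosphorylates NAD to NADP. Nnmt methylates nicotinamide and so removes it from salvage, and Sirt1 is a deacetylase that consumes NAD and releases nicotinamide. The liver is the organ in which the tryptophan route is most active, and Nampt is a known output of the circadian clock.

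Libraries held 17369927 to 22076113 counts. Arntl itself had 0.626 to 39.5 CPM (counts scaled to a fixed library size) in SPF WT, 8.52 to 29.3 in SPF LKO, 0.332 to 40.96 in GF WT and 7.06 to 13.4 in GF LKO libraries. The value of 29.3 belonged to the library labelled as SPF LKO at ZT18, replicate 1, and the next highest of that group was 16.8. The log2 difference of Arntl between LKO and WT mice was -0.33 ± 0.37 in SPF mice (adjusted p = 0.568) and -0.84 ± 0.37 in GF mice (adjusted p = 0.0813). Counts were taken over all exons, so loss of a deleted exon could not be read from them. Npas2 was higher in LKO mice (3.25 in SPF and 2.83 in GF mice), and the clock outputs Nr1d1 (-2.93 and -2.80) and Dbp (-2.29 and -2.78) were lower, and 4 libraries stood apart from their groups in these genes. Npas2, which is high in livers without Bmal1, had 0.221 CPM in the library labelled as SPF LKO at ZT14, replicate 2, and 1.83 in the library labelled as SPF LKO at ZT18, replicate 1, beside 25.2 and 24.0 in the other ZT14 libraries of that group and 36.4 and 27.6 in the other ZT18 libraries. Nr1d1 had 84.8 CPM in the library labelled as SPF WT at ZT14, replicate 3, beside 8.55 and 3.07 in its group, and 9.39 in the library labelled as GF WT at ZT6, replicate 3, beside 51.1 and 49.1. All 72 libraries stayed in the tests, and calls that changed without these 2 SPF LKO libraries or without all 4 are given beside the values with all libraries.

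CPM were scaled by TMM factors, which correct for a few very abundant transcripts. Median factors were 1.03 in SPF WT, 1.12 in SPF LKO, 0.889 in GF WT and 1.002 in GF LKO libraries. Alb, the most abundant of the hepatocyte markers and the gene whose promoter drives the Cre, was lower in LKO mice by a log2 difference of -0.98 in SPF mice (adjusted p = 3.14e-06, edgeR) and -1.703 in GF mice (adjusted p = 2.9e-22). With library totals alone, a scaling tried after the data were seen, the median over all genes tested moved from -0.01 to 0.10 for genotype in SPF mice, from 0.01 to 0.18 for genotype in GF mice, from -0.02 to -0.19 for microbiota in WT mice and from -0.02 to -0.13 for microbiota in LKO mice. The share of calls that were higher moved with it, from 50.2% to 80.4%, from 50.5% to 87.4%, from 44.5% to 7.09% and from 49.5% to 17.9%. Calls of members over pooled ZT and calls of rhythm that this scaling ended or added are given beside each gene.

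Per kilobase of exon the 9 transcripts spanned levels from Nnmt at the top to Sirt1 at the bottom. Mean levels over the 72 libraries were 107 CPM per kilobase for Nnmt, 66.7 for Qprt, 63.9 for Nadk, 26.6 for Naprt, 20.2 for Nampt, 6.87 for Nmrk1, 5.24 for Nadsyn1, 5.01 for Nmnat1 and 3.09 for Sirt1. The steps from Nadk to Naprt, from Nampt to Nmrk1 and from Nmnat1 to Sirt1 held in 72 of 72 libraries. Qprt was above Nadk in 42 libraries, Nmrk1 above Nadsyn1 in 40 and Nadsyn1 above Nmnat1 in 41, so these neighbours were not separated by their spread. Nnmt was above Qprt in 53 libraries and Naprt above Nampt in 57.

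**Figure D1:**
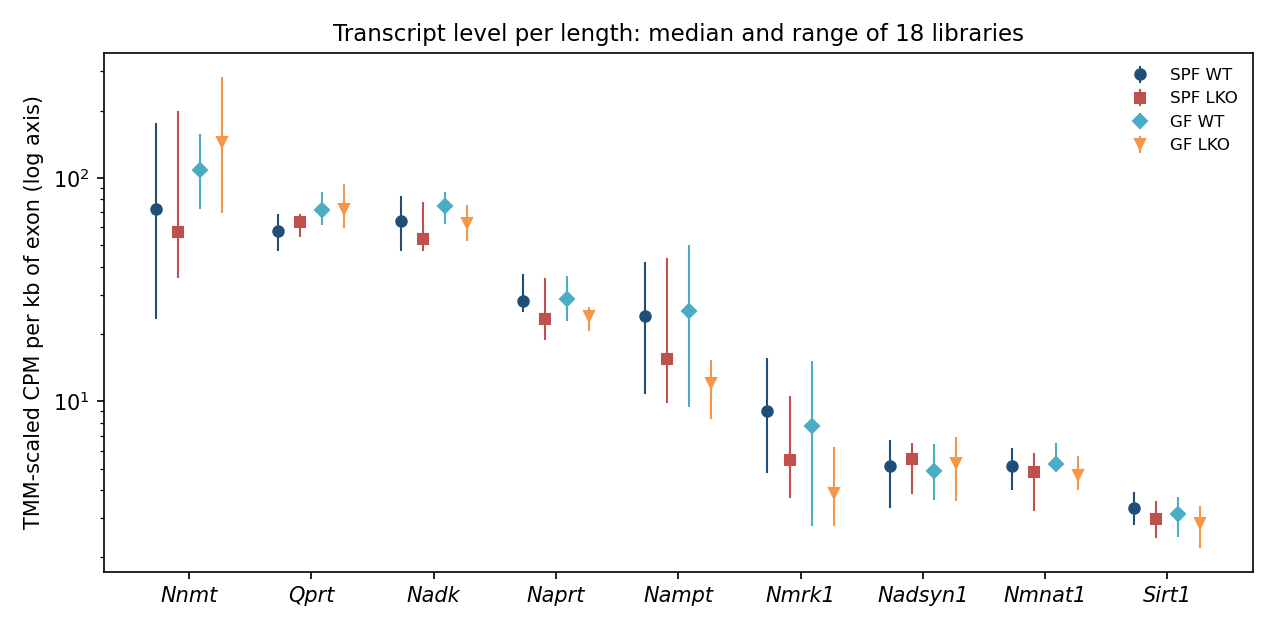
Level of each transcript per kilobase of exon (TMM-scaled CPM per kilobase, log axis) in the 4 groups of 18 libraries. Points are medians and bars run from the lowest to the highest library, with Nnmt, Qprt and Nadk highest and Sirt1 lowest in each group.

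Transcripts of the salvage enzymes Nampt and Nmrk1 were lower in LKO than in WT mice in either microbial state. In SPF mice 4 of the 9 members were lower in LKO mice over all ZT, namely Nampt, Nmrk1, Naprt and Sirt1, with no call in the other direction, while 23.1% of all genes tested were called. In GF mice 5 were lower and 1 higher, with Nampt, Nmrk1, Naprt, Nadk and Nmnat1 lower and Nnmt higher, where 30.8% of all genes were called. The median log2 difference of the 9 members was -0.17 in SPF and -0.18 in GF mice, beside -0.01 and 0.01 over all genes. Between microbial states, Qprt, Nadk and Nnmt were higher in GF than in SPF mice among WT mice (3 of 9 members, 31.8% of all genes), and among LKO mice Qprt and Nnmt were higher and Nampt and Nmrk1 lower (4 of 9, 36.4% of all genes). The 4 comparisons share groups and are not independent. They pool all ZT without a term for ZT, so their errors include the change over the day as well as the spread between mice. The genotype effect differed between GF and SPF mice for 0 of the 9 members in edgeR's test of the difference itself, and for 0.438% of all genes. In that test DESeq2 also called 0 members, and 1 member, Nampt, had an unadjusted p under 0.05. Over all 13484 genes tested DESeq2 called 71, and 876 had an unadjusted p under 0.05 by edgeR.

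**Figure D2:**
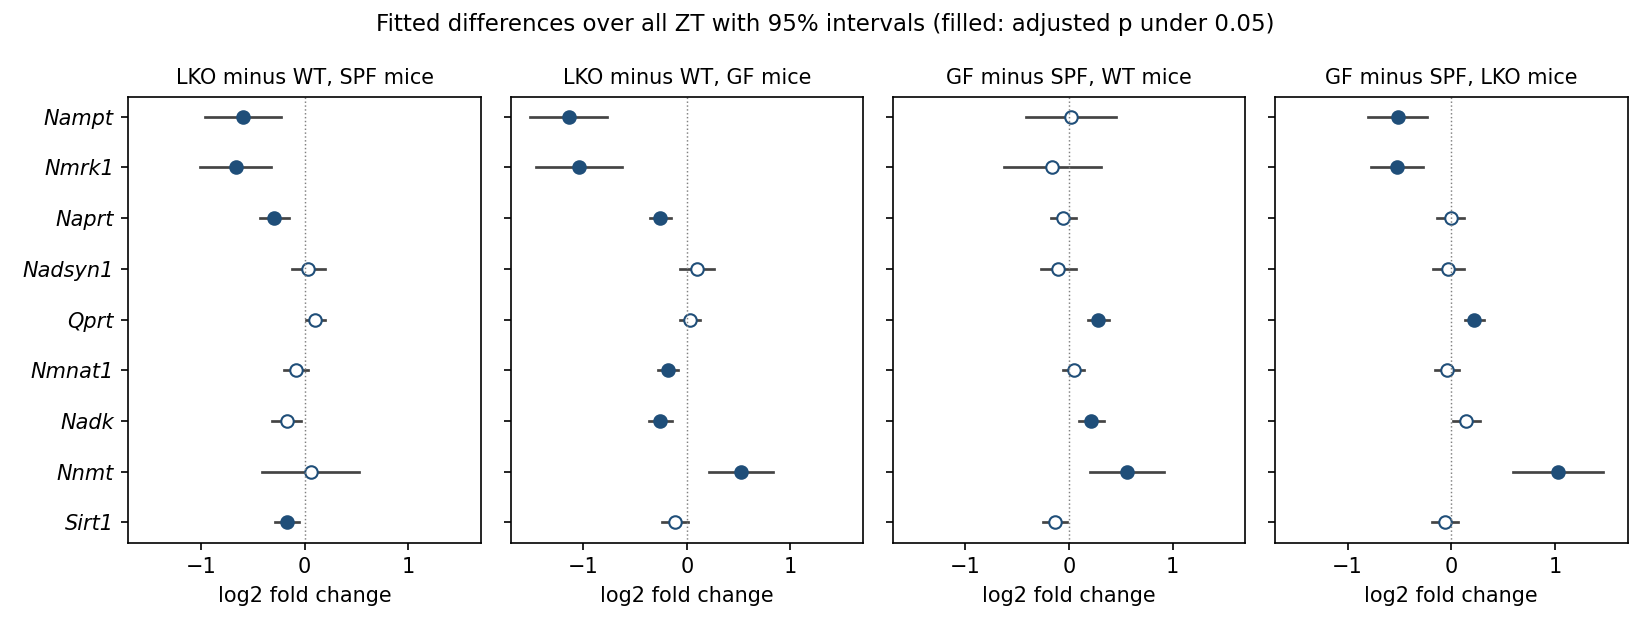
Log2 fold changes of the 9 members over all ZT in the 4 pooled comparisons, with 95% intervals from edgeR; filled points have an adjusted p under 0.05. Nampt and Nmrk1 lie left of 0 in both genotype panels and in the comparison of GF with SPF LKO mice, while Nnmt lies right of 0 in the GF genotype panel and in both microbiota panels.

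Calls of members by ZT fell between ZT6 and ZT18. In SPF mice 4 of the 54 pairs of member and ZT passed, all at ZT10 (Nampt, Nmrk1, Naprt and Nadk), where 11.9% of all genes were called. The share of all genes called in SPF mice was 6.89% at ZT2 and 7.26% at ZT6, then 0% (ZT14), 0.015% (ZT18) and 3.31% (ZT22), and 0 members passed edgeR's test at these ZT. Of the 45 pairs at those ZT, 11 had an unadjusted p under 0.05. Over all genes this p was under 0.05 for 2897 of 13596 at ZT2, 2915 of 13609 at ZT6 and 1484 of 13317 at ZT14. At ZT18 it was so for 1413 of 13326 genes and at ZT22 for 1966 of 13576. Of the 54 SPF pairs 5 were called by DESeq2, which called 114 (ZT18) to 1850 (ZT10) of all genes per ZT. In GF mice DESeq2 called 12 of 54 pairs, and 796 (ZT2) to 1942 (ZT6) of all genes per ZT. By edgeR 9 of the 54 GF pairs passed. The 9 were Nampt at ZT6, ZT10, ZT14 and ZT18, Nmrk1 at ZT10 and ZT14, Nadk at ZT6 and ZT10, and Nnmt at ZT18. The share of all genes called in GF mice was 4.21% at ZT2, 11.7% at ZT6 and 13.1% at ZT10. In the dark phase the shares were 6.1%, 8.43% and 4.44% in order of time (ZT14, ZT18, ZT22). At GF ZT2 and ZT22 edgeR called 0 members. Of the 18 pairs there 4 had an unadjusted p under 0.05, Nampt and Nmrk1 at ZT2 and Nampt and Naprt at ZT22. Over all genes 2104 of 13596 had such a p at ZT2 and 1963 of 13576 at ZT22.

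Several of these calls turned on the libraries that stand apart. Without the 2 SPF LKO libraries 9 SPF pairs passed, and without all 4 there were 11. Calls over all genes rose as well. Without the 2 libraries they went from 0 to 699 of 13554 genes at SPF ZT14 and from 2 to 627 of 13547 at SPF ZT18. Without all 4 they were 743 of 13485 at SPF ZT14 and went from 988 to 1452 of 13944 at SPF ZT6. At SPF ZT14 Nampt was -0.86 ± 0.20 without the 2 libraries (adjusted p = 0.0282), beside -0.31 ± 0.30 with all libraries (adjusted p = 0.731). Naprt there was -0.45 ± 0.11 (adjusted p = 0.031), beside -0.13 ± 0.18 (adjusted p = 0.815), and Nadk was -0.40 ± 0.10 (adjusted p = 0.0388), beside -0.21 ± 0.13 (adjusted p = 0.593). At SPF ZT18 Nampt was -0.89 ± 0.15 without the 2 libraries (adjusted p = 0.00335), beside -0.61 ± 0.19 (adjusted p = 0.29), and Nmrk1 was -1.10 ± 0.17 (adjusted p = 0.00154), beside -0.61 ± 0.26 (adjusted p = 0.434). These 5 pairs were the ones added by that removal in SPF mice.

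The 4 groups share 1 estimate of the spread, and in GF mice the same removal of the SPF LKO libraries added calls. They were Nadk at ZT14 (-0.47 ± 0.09, adjusted p = 0.00403, beside -0.47 ± 0.13 and 0.0568) and Nmrk1 at ZT18 (-0.52 ± 0.15, adjusted p = 0.0366, beside -0.52 ± 0.26 and 0.247). Over all genes that removal took the calls at GF ZT14 from 813 to 1461 and at GF ZT18 from 1124 to 1492. Without all 4 libraries Nampt at SPF ZT6 was -1.07 ± 0.13 (adjusted p = 0.000129), beside -1.07 ± 0.35 (adjusted p = 0.0877), and Naprt was -0.38 ± 0.11 (adjusted p = 0.035), beside -0.38 ± 0.11 (adjusted p = 0.0541). At SPF ZT14 the removal of all 4 gave -1.08 ± 0.11 for Nampt (adjusted p = 0.0001), -0.44 for Naprt (adjusted p = 0.0468) and -0.38 for Nadk (adjusted p = 0.0544). Nmrk1 there was -0.85 ± 0.22 (adjusted p = 0.0426), beside -0.53 ± 0.22 with all libraries (adjusted p = 0.405).

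In GF mice 3 of the Nampt calls by ZT changed when single libraries were left out. At GF ZT6 the difference was -1.53 ± 0.35 (adjusted p = 0.0132), with 253 CPM in the GF WT library that stands apart beside 78.6 and 81.5. Without that library it was -0.74 (adjusted p = 0.00435), and without GF LKO ZT6 replicate 1 it was -1.45 (adjusted p = 0.0585). Nampt at GF ZT18 (-0.78 ± 0.19, adjusted p = 0.0234) was lost in each of the 6 fits without 1 library of the contrast, with adjusted p from 0.0544 to 0.0808. At GF ZT14 it was lost without GF LKO ZT14 replicate 1 (-1.82, adjusted p = 0.0506).

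Nampt (chromosome 12, 32819545 to 32853349, plus strand, GRCm38), which makes nicotinamide mononucleotide from nicotinamide, was lower in LKO mice in either microbial state over pooled ZT. In SPF WT mice it had 62.2, 54.2 and 69.1 CPM at ZT2 and 212, 180 and 167 at ZT10. In SPF LKO mice it had 53.6, 61.9 and 67.1 at ZT2 and 93.9, 88.9 and 88.5 at ZT10. The genotypes thus overlapped at ZT2 and were separated at ZT10, where the log2 difference was -1.04 ± 0.11 (SE, n = 3 per group, adjusted p = 2.42e-05, edgeR). Overlap is given as a description only, since its share over all genes was not computed. In GF WT mice the values were 62.1, 47.8 and 64.5 at ZT2 and 220, 240 and 239 at ZT14. In GF LKO mice they were 51.3, 42.05 and 46.3 at ZT2 and 66.3, 61.5 and 70.1 at ZT14. The difference at GF ZT14 was -1.82 ± 0.31 (adjusted p = 0.0109), the widest of the 12 genotype contrasts by ZT, and no GF LKO library exceeded 77.2 CPM at any ZT.

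Over all ZT, the lowest, median and highest Nampt values of 18 libraries were 54.2, 121 and 212 CPM in SPF WT, 49.4, 78.3 and 222 in SPF LKO, 47.8, 129 and 253 in GF WT and 42.05, 60.8 and 77.2 in GF LKO mice. The genotypes overlapped in either microbial state when all ZT were pooled. The pooled log2 difference between LKO and WT was -0.59 ± 0.18 in SPF mice (95% interval -0.96 to -0.22, adjusted p = 0.0155), a ratio of 0.663. In GF mice it was -1.14 ± 0.18 (-1.51 to -0.77, adjusted p = 4.14e-06), a ratio of 0.453. The difference of these effects was -0.55 ± 0.26, with an adjusted p of 0.721, so the larger value in GF mice was not distinguished from the SPF value. The highest SPF LKO value, 222 CPM, belonged to the library labelled as SPF LKO at ZT14, replicate 2, beside 95.3 and 89.1 in its group, and the library labelled as SPF LKO at ZT18, replicate 1, had 138 beside 82.0 and 83.2. Without these 2 libraries the SPF difference was -0.80 ± 0.16 (adjusted p = 0.000135) and the difference of the effects was -0.34. GF LKO mice were below SPF LKO mice by a log2 difference of -0.52 ± 0.14 (adjusted p = 0.0038), or -0.31 ± 0.10 (adjusted p = 0.011) without the 2 libraries. In WT mice microbial status gave no call (0.02 ± 0.21, 95% interval -0.42 to 0.45, adjusted p = 0.955). All 3 calls of Nampt over pooled ZT held with library totals alone, at -0.50, -0.97 and -0.60.

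Nmrk1 (chromosome 19, 18631950 to 18652428, plus strand), the kinase for nicotinamide riboside, was also lower in LKO mice in either microbial state. In GF WT mice it had 10.7, 10.2 and 10.8 CPM at ZT2 and 51.5, 48.4 and 54.9 at ZT10, and in GF LKO mice 14.0, 13.5 and 16.4 at ZT2 and 15.1, 10.2 and 14.4 at ZT10. At ZT2 all 3 GF LKO libraries were above the GF WT libraries, and at ZT10 all were far below, with a log2 difference of -1.95 ± 0.18 (adjusted p = 4.63e-06). At ZT2 the difference of 0.47 ± 0.15 did not pass (adjusted p = 0.114). The share of all genes separated in this way was not computed, so the order of the libraries is a description only. In SPF mice at ZT10 the WT libraries had 57.7, 51.4 and 57.6 CPM and the LKO libraries 20.3, 31.8 and 19.9, a difference of -1.21 ± 0.18 (adjusted p = 0.000353). Over all ZT the difference between LKO and WT was -0.66 ± 0.17 in SPF mice (adjusted p = 0.00361) and -1.04 ± 0.20 in GF mice (adjusted p = 0.000101). GF LKO mice were below SPF LKO mice by a log2 difference of -0.52 ± 0.13 (adjusted p = 0.00132), and the difference of GF WT from SPF WT mice was -0.16 ± 0.23 (-0.63 to 0.31, adjusted p = 0.622). The library labelled as SPF LKO at ZT14, replicate 2, had 37.7 CPM beside 27.2 and 21.8, and the library labelled as SPF LKO at ZT18, replicate 1, had 39.1 beside 18.9 and 15.4. Without them the SPF genotype difference was -0.81 ± 0.16 (adjusted p = 0.000163) and the difference between GF and SPF LKO mice was -0.38 (adjusted p = 0.00449). Across the 24 means of group and ZT, Nampt and Nmrk1 had a Pearson r of 0.945, the highest among the 36 pairs of members; the next was Nampt and Nmnat1 at 0.669.

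**Figure D3:**
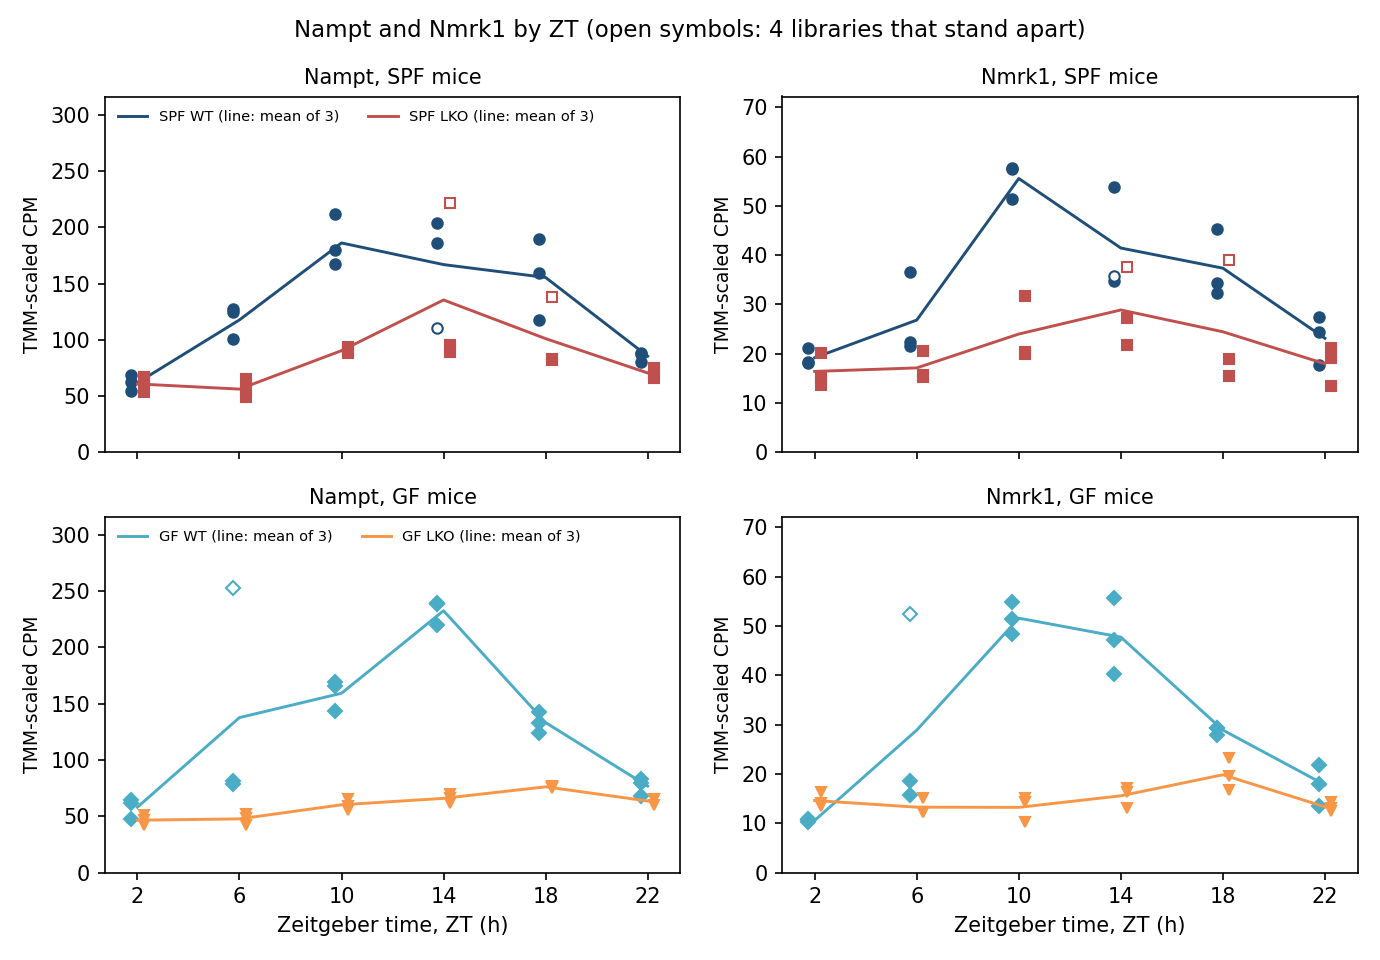
Nampt and Nmrk1 in TMM-scaled CPM against ZT in SPF and GF mice, with 1 point per library, lines through the means of 3, and open symbols for the 4 libraries that stand apart. In GF mice the WT lines rise to ZT10 or ZT14 and the LKO lines stay between 46.6 and 76.2 for Nampt and between 13.2 and 19.8 for Nmrk1.

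Promoter sequence was examined for these genes because they moved together and because clock factors bind short motifs near start sites. RefSeq windows of GRCm38.p6, from 250 bases before a start site to 50 after, were found for 7 members; Naprt and Nnmt had no entry. On both strands 5 motifs were searched, the E-box CACGTG, its relative CACGTT, the D-box forms TTATGTAA and TTACGTAA, and TAGGTCA, the core of the site for REV-ERB and ROR. Over all 32851 windows the shares with a match were 7.15%, 4.68%, 0.938%, 0.119% and 2.61%. The Nampt window (chr12:32820085-32820384, plus strand), the Nmrk1 window (chr19:18631766-18632065, plus strand) and 1 of the 2 Nadk windows (chr4:155563565-155563864, plus strand) read as follows, 5′ to 3′ along the gene, with motif matches in capitals.
Nampt: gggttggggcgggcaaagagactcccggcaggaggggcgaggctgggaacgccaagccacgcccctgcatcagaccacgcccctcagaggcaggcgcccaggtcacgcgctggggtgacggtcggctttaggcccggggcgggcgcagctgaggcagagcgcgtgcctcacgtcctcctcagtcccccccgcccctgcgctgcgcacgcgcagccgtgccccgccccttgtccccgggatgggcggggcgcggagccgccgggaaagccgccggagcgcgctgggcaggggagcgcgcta
Nmrk1: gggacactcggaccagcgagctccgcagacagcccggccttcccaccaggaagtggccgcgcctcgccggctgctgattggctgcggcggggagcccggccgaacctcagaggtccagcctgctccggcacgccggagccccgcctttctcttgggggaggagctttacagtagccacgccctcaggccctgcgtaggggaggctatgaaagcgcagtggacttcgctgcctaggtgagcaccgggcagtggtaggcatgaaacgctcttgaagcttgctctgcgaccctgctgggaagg
Nadk: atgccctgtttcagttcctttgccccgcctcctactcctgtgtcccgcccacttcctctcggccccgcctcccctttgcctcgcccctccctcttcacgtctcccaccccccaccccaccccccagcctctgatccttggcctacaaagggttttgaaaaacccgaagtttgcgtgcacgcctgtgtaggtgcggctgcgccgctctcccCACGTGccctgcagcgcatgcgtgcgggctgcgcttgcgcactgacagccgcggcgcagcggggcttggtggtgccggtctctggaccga
None of the 5 motifs occurred in the Nampt and Nmrk1 windows, while the Nadk window shown held CACGTG starting at position -40 from its start site. The other Nadk window (chr4:155562131-155562430, plus strand) held none of the 5. The Sirt1 window held CACGTG at -115 and -43, and the windows of Nmnat1, Nadsyn1 and Qprt held none of the 5. A match is only a description of the letters, and these windows do not cover introns or distant sites.

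Naprt (chromosome 15, 75890956 to 75894481, minus strand), the entry enzyme for nicotinic acid, was lower in LKO mice by a smaller margin. Its lowest, median and highest values were 58.7, 66.03 and 87.0 CPM in SPF WT, 44.3, 54.7 and 83.6 in SPF LKO, 53.8, 67.5 and 85.2 in GF WT and 48.4, 56.3 and 62.1 in GF LKO libraries. The genotypes overlapped at 3 of 6 ZT in SPF mice, a description only, since the share of all genes with overlap was not computed. The log2 difference was -0.29 ± 0.07 in SPF mice (adjusted p = 0.00181) and -0.26 ± 0.05 in GF mice (adjusted p = 0.000122). With library totals alone the SPF call held at -0.19 (adjusted p = 0.0217) and the GF value became -0.08 (adjusted p = 0.188). At SPF ZT10 WT mice had 59.7, 63.7 and 64.02 CPM and LKO mice 47.01, 44.3 and 52.1 (-0.39 ± 0.10, adjusted p = 0.0232). That call was lost without the SPF WT replicate 3 of ZT10 (adjusted p = 0.0678) and without the SPF LKO replicates 1 or 2 of ZT10 (0.0948 and 0.0855), and with library totals alone (0.0872) or no filter on low counts (0.0533). The 2 libraries labelled SPF LKO that stand apart had the highest Naprt values of their group, 83.6 and 75.9 CPM. The log2 difference of GF WT from SPF WT mice was -0.05, which became -0.22 (adjusted p = 0.00298) with library totals alone. Exons of Naprt overlap those of Eef1d on the same strand over 277 bases, and reads there were not counted for either gene.

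Nadsyn1 (chromosome 7, 143795584 to 143822849, minus strand), the amidating enzyme, did not pass in any pooled comparison. Its log2 difference between LKO and WT was 0.04 ± 0.08 in SPF mice (-0.12 to 0.20) and 0.10 ± 0.08 in GF mice (-0.06 to 0.26, adjusted p = 0.386), and the latter became 0.27 (adjusted p = 0.00776) with library totals alone. Between GF WT and SPF WT mice it was -0.10, and -0.28 (adjusted p = 0.0143) with library totals alone. Its daily change is described with the rhythms.

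Qprt (chromosome 7, 127107114 to 127122226, minus strand), the last enzyme particular to the tryptophan route, was higher in GF than in SPF mice. Medians were 153, 168, 189 and 193 CPM in SPF mice of WT and LKO genotype and GF mice of WT and LKO genotype. GF mice were above SPF mice by 0.28 ± 0.05 on the log2 scale among WT mice (adjusted p = 5.15e-05) and by 0.22 ± 0.04 among LKO mice (adjusted p = 0.000213). With library totals alone these became 0.11 (adjusted p = 0.0998) and 0.11 (adjusted p = 0.0852), so the calls depended on the scaling. The genotype difference was 0.10 ± 0.05 in SPF mice (adjusted p = 0.098) and 0.03 ± 0.05 in GF mice (adjusted p = 0.691). It passed in SPF mice without all 4 libraries that stand apart (0.13, adjusted p = 0.0268), and in both microbial states with library totals alone (0.21 and 0.20).

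Nmnat1 (chromosome 4, 149467572 to 149485202, minus strand), which adenylates either mononucleotide in the nucleus, had 1 call over pooled ZT. It was in GF mice, where LKO was below WT by -0.18 ± 0.05 (adjusted p = 0.00312), and it was -0.01 (adjusted p = 0.874) with library totals alone. In SPF mice the difference was -0.09 ± 0.06 (adjusted p = 0.299), and it turned to 0.02 with library totals alone. Library totals alone also placed Nmnat1 lower in GF than in SPF mice, by -0.12 among WT mice (adjusted p = 0.0304, beside 0.05 with TMM factors) and by -0.15 among LKO mice (adjusted p = 0.0152).

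Nadk (chromosome 4, 155562378 to 155591001, plus strand), the cytosolic NAD kinase, was lower in LKO mice at ZT6 and ZT10 in GF mice and at ZT10 in SPF mice. In GF mice at ZT6 the WT libraries had 263, 262 and 316 CPM and the LKO libraries 202, 195 and 203 (-0.49 ± 0.11, adjusted p = 0.0145), and at ZT10 292, 259 and 325 against 198, 213 and 212 (-0.48 ± 0.10, adjusted p = 0.0043). The genotypes did not overlap at ZT6, ZT10 and ZT14 and overlapped at ZT2, ZT18 and ZT22. The share of all genes without overlap was not computed, so this only describes the 3 libraries per group. The GF WT value of 316 belonged to the library that stands apart, and without it the ZT6 difference was -0.39 ± 0.11 (adjusted p = 0.0487). In SPF mice at ZT10 the WT libraries had 239, 223 and 243 CPM and the LKO libraries 178, 193 and 191 (-0.33 ± 0.10, adjusted p = 0.0454), a call that was lost in 5 of the 6 fits that left out 1 library of that contrast, with adjusted p from 0.0722 to 0.186, and kept without the SPF WT replicate 2 of ZT10 (0.0407). It was also lost with library totals alone (adjusted p = 0.155) and with no filter on low counts (0.142). Over all ZT the difference in GF mice was -0.25 ± 0.06 (adjusted p = 0.000394) and became -0.08 (adjusted p = 0.218) with library totals alone. In SPF mice it was -0.17 ± 0.07 (adjusted p = 0.066) with all libraries, -0.17 (adjusted p = 0.00773) with ZT as a factor in the model, and -0.23 ± 0.06 (adjusted p = 0.00601) without the 2 SPF LKO libraries that stand apart. It also passed without any 1 of SPF WT ZT2 replicate 2, ZT6 replicate 3 and ZT22 replicate 3 and SPF LKO ZT14 replicate 2, ZT18 replicate 1 and ZT18 replicate 3, with adjusted p from 0.0154 to 0.0488. GF WT mice were above SPF WT mice by 0.22 ± 0.06 (adjusted p = 0.00601), and by 0.05 (adjusted p = 0.447) with library totals alone. Among LKO mice the difference of 0.14 ± 0.06 did not pass (adjusted p = 0.0792). It passed with ZT as a factor (0.15, adjusted p = 0.0146), without SPF LKO ZT14 replicate 2 (adjusted p = 0.0189), ZT18 replicate 1 (0.0466) or ZT18 replicate 3 (0.0479), and it was 0.20 (adjusted p = 0.00735) without both libraries that stand apart.

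Nnmt (chromosome 9, 48591877 to 48605153, minus strand), which methylates nicotinamide, was higher in GF than in SPF mice and, among GF mice, higher in LKO than in WT mice. Its lowest, median and highest values were 36.9, 114 and 276 CPM in SPF WT, 56.4, 90.1 and 315 in SPF LKO, 114, 171 and 246 in GF WT and 110, 228 and 447 in GF LKO libraries. GF mice were above SPF mice by 0.56 ± 0.18 among WT mice (adjusted p = 0.0154) and by 1.03 ± 0.21 among LKO mice (adjusted p = 0.000306), ratios of 1.47 and 2.04. GF LKO mice were above GF WT mice by 0.52 ± 0.15 (adjusted p = 0.00668), and all 3 calls held with library totals alone, at 0.40, 0.94 and 0.69. In SPF mice the genotype difference was 0.06 ± 0.23 (-0.41 to 0.53, adjusted p = 0.888), and its sign turned to -0.05 without the 2 SPF LKO libraries that stand apart. The difference of the genotype effects between GF and SPF mice was 0.46 ± 0.28 (-0.11 to 1.02, adjusted p = 0.894).

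The spread of Nnmt between mice of 1 group was wide. At ZT10 the SPF WT mice had 276, 71.4 and 111 CPM, and the GF LKO mice had 110, 348 and 158. At ZT14 the libraries labelled SPF LKO had 278, 315 and 241 CPM and those labelled SPF WT 232, 123 and 124, without overlap, and the difference of 0.79 ± 0.23 did not pass (adjusted p = 0.274). The share of all genes without overlap there was not computed. The value of 315 and the WT value of 124 belong to libraries that stand apart, and without all 4 such libraries the difference was 0.54 ± 0.25 (adjusted p = 0.278). edgeR called 0 of all genes at SPF ZT14, where the unadjusted p of 1484 genes was under 0.05 and 141 were called by DESeq2; without the 2 SPF LKO libraries edgeR called 699 there and Nnmt had 0.70 ± 0.24 (adjusted p = 0.139). At GF ZT18 the LKO mice had 272, 447 and 297 CPM and the WT mice 205, 162 and 149 (1.002 ± 0.252, adjusted p = 0.0285). That call was lost in 4 of the 6 fits that left out 1 library of the contrast, with adjusted p of 0.0946 and 0.102 without GF WT replicates 3 and 2 and 0.113 and 0.0513 without GF LKO replicates 2 and 3.

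**Figure D4:**
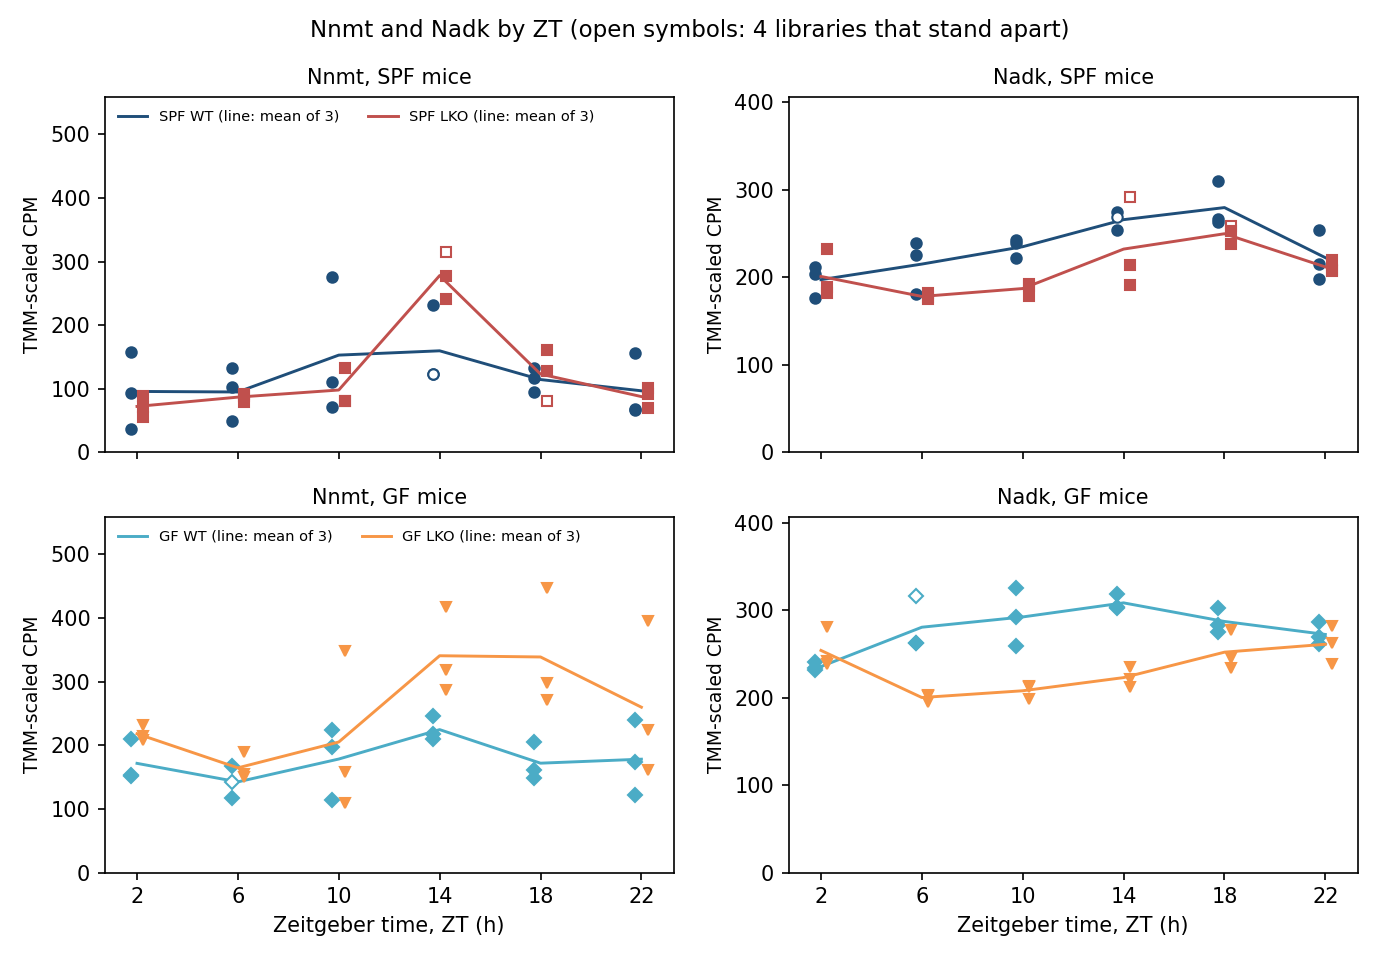
Nnmt and Nadk in TMM-scaled CPM against ZT in SPF and GF mice, with 1 point per library, lines through the means of 3, and open symbols for the 4 libraries that stand apart. Nnmt is highest at ZT14 in all 4 groups, and the Nadk lines of LKO mice lie below those of WT mice from ZT6 to ZT18.

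Sirt1 (chromosome 10, 63319005 to 63381704, minus strand), the NAD-dependent deacetylase, had the lowest level per kilobase of the 9. Medians were 17.7, 15.8, 16.7 and 15.2 CPM in SPF mice of WT and LKO genotype and GF mice of WT and LKO genotype. The genotype difference was -0.17 ± 0.06 in SPF mice (adjusted p = 0.0239) and -0.11 ± 0.06 in GF mice (adjusted p = 0.175). The SPF call was lost with library totals alone (-0.07, adjusted p = 0.345) and without the filter on low counts (adjusted p = 0.0653), and the GF value turned to 0.06 with library totals alone. The difference of GF WT from SPF WT mice was -0.13 ± 0.06 (adjusted p = 0.0713), which passed without GF WT ZT2 replicate 3 (adjusted p = 0.0464) or GF WT ZT14 replicate 1 (0.0418) and became -0.31 (adjusted p = 7.03e-05) with library totals alone. Among LKO mice library totals alone gave -0.17 (adjusted p = 0.0191). Exons of Sirt1 overlap those of Gm16145 on the other strand over 65 bases, and counting did not use the strand.

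Daily rhythm was tested by a 24 h cosine curve in the count model, and its amplitude is the rise from the mean to the peak on the log2 scale. In SPF WT mice 3 of 9 members were rhythmic, Nampt, Nmrk1 and Nadk, where 16.9% of all genes were. In SPF LKO mice 4 were, with Nnmt added (24.5% of all genes). In GF WT mice 6 were, namely Nampt, Nmrk1, Nadk, Nadsyn1, Qprt and Naprt (29.4% of all genes). In GF LKO mice 5 were, namely Nampt, Nadk, Nnmt, Nadsyn1 and Qprt (38.6% of all genes). Nmnat1 and Sirt1 passed in none of the 4 groups.

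Nampt had a rhythm that passed in each of the 4 groups. Its amplitude was 0.76 ± 0.09 with a peak at 12.9 ± 0.46 h in SPF WT mice (adjusted p = 0.000103), 0.60 ± 0.11 at 14.9 ± 0.69 h in SPF LKO mice (adjusted p = 0.00308), 0.90 ± 0.13 at 12.5 ± 0.56 h in GF WT mice (adjusted p = 0.000256) and 0.35 ± 0.04 at 16.6 ± 0.46 h in GF LKO mice (adjusted p = 2.75e-05). Nmrk1 had an amplitude of 0.71 ± 0.10 in SPF WT mice, 0.42 ± 0.12 in SPF LKO mice, 1.05 ± 0.13 in GF WT mice and 0.22 ± 0.07 in GF LKO mice, the last with an adjusted p of 0.0541. Its peak lay at 12.7 h in SPF WT, 14.2 h in SPF LKO and 12.3 h in GF WT mice. The Nmrk1 rhythm in GF LKO mice passed without any 1 of ZT2 replicate 3, ZT6 replicate 2, ZT14 replicate 1 and ZT22 replicates 1 and 2 (adjusted p from 0.0350 to 0.0426). In SPF LKO mice the amplitudes of both genes were smaller without the 2 libraries that stand apart. They were then 0.37 for Nampt (adjusted p = 0.00132) and 0.29 for Nmrk1 (adjusted p = 0.0722). Nmrk1 in SPF LKO mice had an adjusted p of 0.0327 with all libraries and was also lost without any of 6 single libraries, replicates 1 and 2 of ZT2, replicate 2 of ZT6, replicates 1 and 2 of ZT14 and replicate 2 of ZT22, with adjusted p from 0.0501 to 0.091, and with library totals alone (0.0714).

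The difference in rhythm between genotypes was tested in its own fit. In GF mice Nampt (adjusted p = 0.0018), Nmrk1 (adjusted p = 0.000158) and Nadk (adjusted p = 0.000761) differed between LKO and WT, 3 of 9 members where 6.38% of all genes did. In SPF mice 0 of 9 differed, where 1.12% of all genes did, with Nampt at an adjusted p of 0.381. Without all 4 libraries that stand apart the Nampt difference in SPF mice passed (adjusted p = 0.00196), and it had an adjusted p of 0.0714 without the 2 SPF LKO libraries alone. Between microbial states 0 of 9 members differed in rhythm among WT mice (0.047% of all genes) and 0 among LKO mice (5.34% of all genes). In these 3 comparisons limma also called 0 members. By edgeR's unadjusted p under 0.05 there were 0 members for genotype in SPF mice, 1 (Qprt) for microbiota in WT mice and 5 (Nampt, Nadsyn1, Qprt, Nadk and Nnmt) for microbiota in LKO mice. Over all genes such a p was found for 1780 of 13159, 1543 of 12776 and 3167 of 13010 in the same order. Among LKO mice Nadsyn1 (adjusted p = 0.0659) passed without SPF LKO ZT2 replicate 3 (0.0489), GF LKO ZT18 replicate 2 (0.0282) or GF LKO ZT22 replicate 1 (0.0466) and with library totals alone (0.0335), and Nadk (adjusted p = 0.12) without SPF LKO ZT2 replicate 2 (0.0483).

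Nadk passed in each of the 4 groups. Its amplitude was 0.23 ± 0.04 in SPF WT, 0.22 ± 0.05 in SPF LKO, 0.15 ± 0.04 in GF WT and 0.20 ± 0.04 in GF LKO mice, and its peak fell at 15.4 ± 0.73, 17.9 ± 0.86, 13.5 ± 0.98 and 21.2 ± 0.70 h. The GF WT rhythm of Nadk was lost without GF WT ZT2 replicate 3 (adjusted p = 0.0519) and with no filter on low counts (0.0895). Nnmt had its largest amplitude in SPF LKO mice, 0.81 ± 0.14 with a peak at 14.4 ± 0.65 h (adjusted p = 0.00172), and it was 0.76 (adjusted p = 0.000922) without the 2 libraries that stand apart. In GF LKO mice Nnmt had 0.52 ± 0.13 at 17.4 ± 0.97 h (adjusted p = 0.0131). In WT mice it did not pass, at 0.41 ± 0.20 (SPF, adjusted p = 0.276) and 0.19 ± 0.10 (GF, adjusted p = 0.308), and the difference in rhythm between genotypes did not pass either (adjusted p = 0.595 in SPF and 0.452 in GF mice).

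In GF mice Nadsyn1 and Qprt had nearly opposite phases. Nadsyn1 peaked at 11.1 ± 0.73 h in GF WT mice and 10.9 ± 0.81 h in GF LKO mice, with amplitudes of 0.26 ± 0.05 and 0.27 ± 0.06. Qprt peaked at 21.9 ± 1.0 h and 0.107 ± 0.95 h, with amplitudes of 0.14 ± 0.04 and 0.16 ± 0.04. The test of a difference in rhythm between the GF genotypes gave no call for either gene (adjusted p = 0.97 and 0.466). In SPF LKO mice Nadsyn1 had an adjusted p of 0.0707, which passed without SPF LKO ZT22 replicate 2 (0.0409) and with library totals alone (0.037). The Qprt rhythm of GF WT mice was lost without GF WT ZT10 replicate 3 (adjusted p = 0.0645) and with library totals alone (adjusted p = 0.129). Naprt in GF WT mice peaked at 23.8 ± 1.0 h (amplitude 0.17 ± 0.05, adjusted p = 0.0262) and was lost without any of 5 single libraries, replicate 2 of ZT2, replicates 1 to 3 of ZT14 and replicate 3 of ZT22, with adjusted p from 0.0501 to 0.0625, and with library totals alone (adjusted p = 0.0975).

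**Figure D5:**
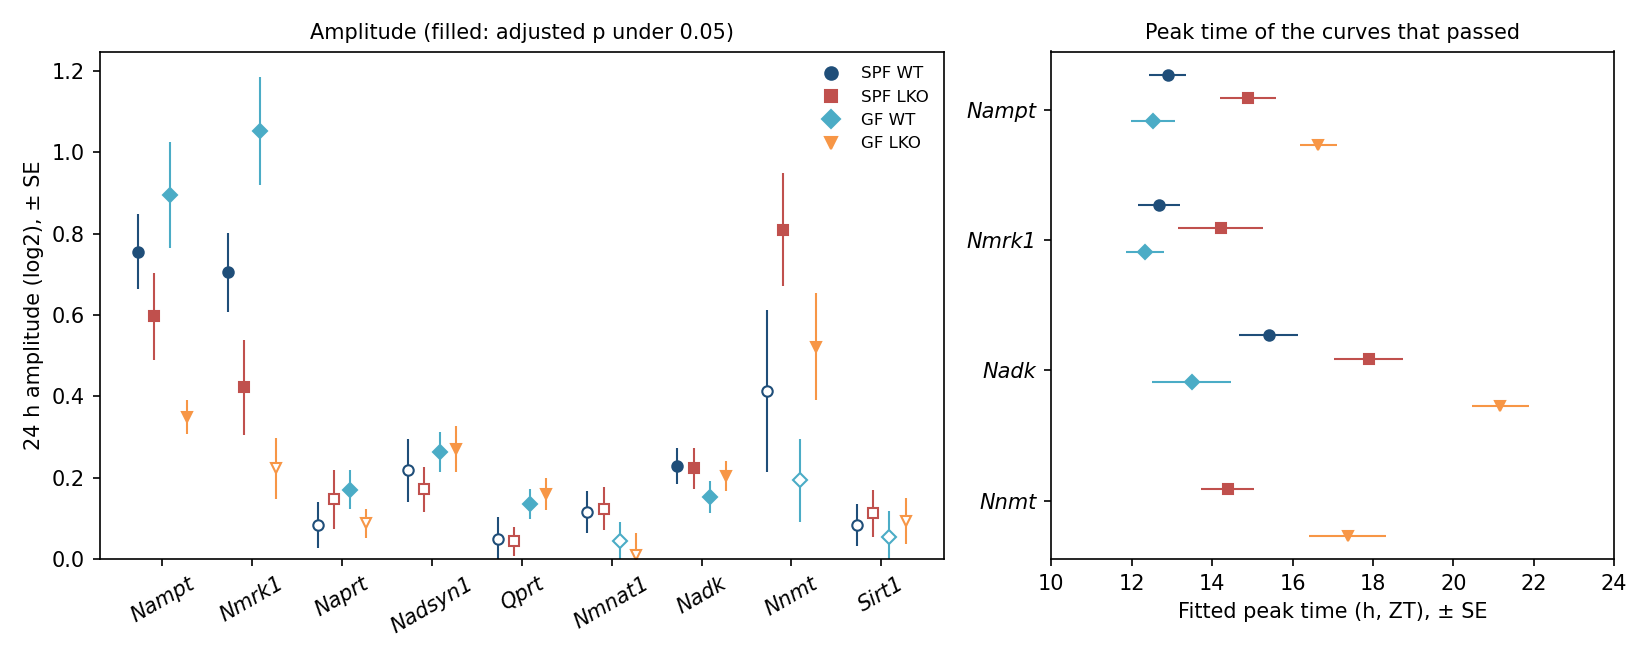
Left, amplitude of the fitted 24 h curve (log2, ± SE) of the 9 members in the 4 groups, with filled symbols at an adjusted p under 0.05; right, fitted peak time (h of ZT, ± SE) of Nampt, Nmrk1, Nadk and Nnmt in the groups where the rhythm passed. Nampt and Nmrk1 have the largest amplitudes in GF WT mice, and the Nampt peak lies at 12.5 h in GF WT and 16.6 h in GF LKO mice.

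Likeness of pattern was measured as Pearson's r over the 24 means of group and ZT among 14636 genes, as a description in which all points share libraries. The genes most like Nampt were Nmrk1 (0.945), Por (0.941), which encodes the reductase that feeds cytochromes P450, Rhbdd2 (0.941), Homer2 (0.940) and Dst (0.937). The 2 genes most like Nmrk1 were Nampt and Slc2a4 (0.928), which encodes an insulin-responsive glucose transporter. Nnmt was most like Fh1 (0.943), the fumarate hydratase of the citric acid cycle, Phf5a (0.928), Yipf5 (0.914), Zcchc17 (0.911) and Mpzl3 (0.902). For the other members the leading pair was Gemin2 (0.823) and Zap70 (0.817) for Nmnat1, Slc2a8 (0.901) and Clcn7 (0.894) for Nadsyn1, Copz1 (0.888) and Pradc1 (0.873) for Qprt, Tmem98 (0.867) and Sigirr (0.855) for Naprt, Mdh2 (0.900) and Cbr1 (0.898) for Nadk, and Gm7694 (0.788) and Chuk (0.757) for Sirt1. With Spearman's rank correlation the gene named first was again first for Nmrk1, Nadk and Nnmt. It was second for Naprt, Sirt1, Nampt (after Dst) and Nadsyn1 (after Clcn7), and its rank was 12 for Nmnat1 and 9 for Qprt. Nampt and Nnmt had an r of 0.046 with each other.

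Of 41 other genes of NAD synthesis and use, 36 were tested in the genotype comparisons. In SPF mice 8 were higher and 8 lower in LKO mice (23.1% of all genes were called), and in GF mice 9 were higher and 8 lower (30.8% of all genes), with median log2 differences of 0.02 and 0.04. Without the 2 SPF LKO libraries that stand apart 9 were higher and 9 lower in SPF mice, while calls over all genes rose from 3043 to 3695 of 13188. Those called in the same direction in both microbial states numbered 12. Nnt, the gene of the mitochondrial transhydrogenase, which carries a deletion in C57BL/6J mice, was lower (-0.53 ± 0.15 in SPF, -0.82 ± 0.17 in GF mice) at a low mean level (0.22 and 0.02 log2 CPM in these fits). Also lower were Afmid (-0.44 ± 0.10 and -0.86 ± 0.09) and Tdo2 (-0.27 ± 0.09 and -0.38 ± 0.09), early enzymes of tryptophan breakdown. Kynu, the kynureninase further along that route, was higher (0.43 ± 0.08 and 0.71 ± 0.10). Pnp, a purine nucleoside phosphorylase that also cleaves nicotinamide riboside, was higher (0.45 ± 0.11 and 0.74 ± 0.12), although reads of the near-identical Pnp2 make its counts uncertain. Parp2, which spends NAD on ADP-ribose, was higher (0.36 ± 0.09 and 0.61 ± 0.08). Of the mitochondrial sirtuins, Sirt5 was higher (0.24 ± 0.07 and 0.26 ± 0.06) and Sirt3 lower (-0.19 ± 0.07 and -0.25 ± 0.06).

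By microbial status 7 listed genes were higher and 6 lower in GF WT mice of 37 tested (31.8% of all genes were called), and 10 were higher and 7 lower in GF LKO mice of 36 tested (36.4% of all genes). In both genotypes 11 were called in the same direction. Acmsd, which diverts the tryptophan route away from NAD, was higher in GF mice (0.93 ± 0.21 in WT, 1.37 ± 0.22 in LKO mice), as was Haao (0.33 ± 0.06 and 0.37 ± 0.05), which makes quinolinate, the substrate of Qprt. Slc22a7, an organic anion transporter, was higher (0.45 ± 0.12 and 0.78 ± 0.15), as was Naxe, an epimerase that repairs damaged NADH (0.33 ± 0.05 and 0.25 ± 0.04). Aox1, an oxidase of methylated nicotinamide, was lower (-0.33 ± 0.08 and -0.51 ± 0.09), as was Sirt6 (-0.58 ± 0.12 and -0.35 ± 0.12).

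RNA came from whole liver, where fewer cells of a type and less RNA per cell cannot be told apart. The summed level of 6 hepatocyte markers was 85689 to 136030 CPM in SPF WT, 47122 to 131035 in SPF LKO, 118816 to 172641 in GF WT and 56756 to 81495 in GF LKO libraries. The sum includes Alb, the most abundant of them and the 1 marker called lower in SPF LKO mice. The other markers there ran from -0.13 (Cyp2e1) to 0.12 (Cps1) on the log2 scale, without a call. In GF LKO mice 3 were lower, Alb, Ttr (-0.21) and Cyp2e1 (-0.28). All 6 were higher in GF than in SPF WT mice, and 3 of 6 were higher and 1 lower in GF LKO relative to SPF LKO mice. The 6 Kupffer cell markers summed to 175 to 451, 167 to 274, 144 to 292 and 107 to 250 CPM in the same order, with 4 lower in SPF LKO and 2 lower in GF LKO mice. Over all libraries the 5 endothelial markers summed to 120 to 203 CPM, the 5 stellate cell markers to 255 to 456, the 4 erythroid markers to 48.99 to 608, the 4 lymphoid markers to 5.14 to 35.3, the 4 bile duct markers to 3.14 to 19.4, the 4 neutrophil markers to 0.0574 to 20.5, the 4 fat markers to 0.465 to 9.62 and the 4 pancreatic markers to at most 0.172. Lep was at 0 in every library. Named after their values were seen, Sox9 was higher in LKO mice (1.17 ± 0.20 in SPF, 0.78 ± 0.17 in GF mice) and Cidec lower (-1.005 ± 0.203 and -1.36 ± 0.25). Of the 4 fat markers only Cidec was tested, as the others did not pass the filter on low counts. The other bile duct markers, Krt19, Krt7 and Epcam, had no genotype call, with values from -0.40 (Krt7, GF mice) to 0.24 (Epcam, GF mice). Stab2 was higher in LKO mice of the GF groups (0.39 ± 0.07). The other endothelial markers had no call there, with Pecam1 at -0.11, Kdr at -0.12, Clec4g at -0.17 and Lyve1 at 0.33. Clec4g was lower in SPF LKO mice (-0.28 ± 0.08). Of the 5 stellate cell markers, Reln was higher (0.32 ± 0.07) and Rgs5 lower (-0.29 ± 0.09) in SPF LKO mice. Lrat was higher in GF LKO mice (0.38 ± 0.13), and the other stellate markers had no genotype call in these states. In GF relative to SPF mice S100a8 (-1.30 ± 0.39 in WT, -1.28 ± 0.32 in LKO mice), S100a9 (-1.33 ± 0.42 and -1.17 ± 0.31) and Ptprc (-0.71 ± 0.15 and -0.58 ± 0.10) were lower. The part of these shifts in the members' differences was not tested.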

How the data were processed

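Livers of 72 male mice were profiled by stranded single-end mRNA sequencing. The authors aligned reads with STAR 2.6.1b to mm10 and deposited raw counts per gene from featureCounts 2.0.0, over exons of Ensembl 97 without strand and without multi-mapping reads; FastQC, MultiQC and bcl2fastq have no version in the sources used here. Library totals were 17369927 to 22076113 counts, and 22224 of the 55573 genes had no count in any library. Symbols and GRCm38 positions came from GENCODE vM21, which matched 55394 gene identifiers.

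Groups and replicates were taken from the labels, with 3 mice per group and ZT. Separate mice were counted as replicates, and 0 libraries had counts identical to another. The p-values and standard errors rest on the spread between these samples. In pooled comparisons without a term for ZT, that spread includes the change over the day. Tests used edgeR 4.0.16 (R 4.3.3) quasi-likelihood fits with TMM factors, filterByExpr and Benjamini-Hochberg adjustment over all genes tested, at 0.05. Pairs of groups were compared with ZT pooled, as the study did, and all 4 groups were fitted at each ZT. The study's rank test of rhythm was replaced by cosine and sine terms with a period of 24 h. Scripts were tested on simulated data. CPM are TMM-scaled, and errors of differences, amplitudes and peak times are standard errors.

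Members, gene lists and tests were chosen with earlier results of these data known. All 9 members are described; of the 41 other NAD genes, the text names those called with the same sign in both microbial states (genotype, at most 8) or both genotypes (microbiota, at most 6), largest mean difference first, and for likeness the 5 genes nearest Nampt and Nnmt and the 2 nearest each other member. Alternatives were DESeq2 1.42.0 and its size factors, limma 3.58.1 (limma-trend), ZT as a factor, no filter, a replicate block, leaving out each library, leaving out the 2 or 4 libraries that stand apart, Spearman's correlation and, chosen after seeing the data, library totals only.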

Additional observations from a re-analysis of the deposited data

Results flagged for a closer look

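The 24 h rhythm of 3 members differed between the genotypes in GF mice by the test of the difference itself, in edgeR's quasi-likelihood fit with Benjamini-Hochberg adjustment over all genes tested. The adjusted p was 0.0018 for Nampt, 0.000158 for Nmrk1 and 0.000761 for Nadk. Nampt had an amplitude of 0.90 ± 0.13 on the log2 scale in GF WT mice and 0.35 ± 0.04 in GF LKO mice, with fitted peaks at 12.5 and 16.6 h. Nmrk1 had 1.05 ± 0.13 in GF WT and 0.22 ± 0.07 in GF LKO mice. Nadk had amplitudes of 0.15 ± 0.04 and 0.20 ± 0.04, with peaks at 13.5 and 21.2 h. Whether the genotype difference in rhythm itself differed between GF and SPF mice was not tested.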

How the results depend on the processing

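DESeq2, its size factors and limma-trend ended no call of a member, and each count of members called stayed within 1.5 times its value with these 3. With library totals only, 104 of 130 values of single genes kept their direction and side of the threshold, 12 lost their call, 10 gained one and 4 turned. Of those that turned, Nmnat1 for microbiota in WT mice also passed (adjusted p = 0.0304, edgeR). Values by ZT were entered here only for pairs called in the main fit, so such pairs could lose a call but not gain one. Members called for microbiota in WT mice then numbered 5 in place of 3. Pairs of member and ZT called in SPF mice (4) became 2 with library totals, 8 with no filter, 9 without the 2 SPF LKO libraries, 11 without all 4, and 2 to 7 when single libraries were left out. Those in GF mice (9) became 15 with no filter and 7 to 10 without single libraries. Rhythmic members went from 4 to 2 in SPF LKO and from 6 to 3 in GF WT mice with ZT as a factor, and to 3 in GF WT mice with no filter. Those lost with no filter were Nadk, Qprt and Naprt (adjusted p = 0.0895, 0.176 and 0.0862, edgeR). Rhythm differed between SPF genotypes for 1 member in place of 0 without the 4 libraries. Between GF and SPF LKO mice it differed for 1 in place of 0 with library totals or with no filter, and for 0 to 1 without single libraries. The causes were not tested.

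Log2 differences that turned sign were mostly near 0. With library totals Nmnat1 was 0.0176 for genotype in SPF mice and -0.124 for microbiota in WT mice, Sirt1 was 0.0636 for genotype in GF mice, and Nampt was -0.137 for microbiota in WT mice. Nnmt for genotype in SPF mice was -0.0526 without the 2 SPF LKO libraries, -0.04998 without all 4, -0.0733 with ZT as a factor and -0.0785 to 0.176 without single libraries. Nampt for microbiota in WT mice was -0.0709 without the 4 libraries, -0.0259 with ZT as a factor and -0.0588 to 0.0774 without single libraries. Naprt for microbiota in LKO mice was 0.0671 without the 2 libraries and -0.0252 to 0.0336 without single libraries. The difference of the genotype effects for Nadsyn1 was -0.0058 without the 4 libraries. Of the values of single genes refitted without 1 library, 3891 kept direction and call, 33 lost the call, 21 gained one and 21 turned. By ZT these too cover only pairs called with all libraries, which could not gain a call.

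Replicate numbers did not pair the samples. Over 2000 genes and 72 pairs of groups with the same number, the correlation of deviations ran from -0.19 to 0.34 with a median of 0.006, and 14 pairs were over 0.1. In comparisons of groups over all ZT the block was the replicate number within each ZT, so it also took up differences between ZT. At a single ZT, and for rhythm within a group, it was the replicate number alone. With the block, Nadk passed for genotype in SPF mice (-0.17, adjusted p = 0.0165) and microbiota in LKO mice (0.15, adjusted p = 0.024). Both also passed with ZT alone as a factor (adjusted p = 0.00773 and 0.0146). Sirt1 passed for microbiota in WT mice (-0.14, adjusted p = 0.0437), and Nadk at SPF ZT10 was lost (-0.33, adjusted p = 0.0663). Nampt for microbiota in WT mice turned to -0.0552 and Naprt for microbiota in LKO mice to 0.00853 under the block, and each other call was the same.

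Counts over all genes also moved. Called genes for genotype in GF mice went from 3899 to 6920 and for microbiota in WT mice from 4069 to 6336 with library totals, and the interaction from 59 to 35 without the 2 libraries. With ZT as a factor rhythmic genes went from 2041 to 990 in SPF WT, from 3014 to 787 in SPF LKO and from 3429 to 1729 in GF WT mice. Genes with a different rhythm between SPF genotypes numbered 148, and 246 with no filter, 261 and 364 without 2 or 4 libraries, 63 with the block and 44 with ZT as a factor. Between GF genotypes they went from 808 to 495 with ZT as a factor. Between WT mice they numbered 6, and 3 with library totals, 62 with no filter, 10 without 4 libraries and 1 with ZT as a factor, and between LKO mice 695, and 399 without 2 libraries, 101 with the block and 7 with ZT as a factor. By ZT, SPF ZT14 went from 0 to 532 with no filter, 141 with DESeq2 and 699 or 743 without 2 or 4 libraries. SPF ZT18 went from 2 to 1 with library totals, 623 with no filter, 114 with DESeq2, 627 without 2 libraries and 0 with the block. GF ZT14 went from 813 to 1601 with no filter, 1321 with DESeq2 and 1461 or 1839 without 2 or 4 libraries. With no filter SPF ZT2 went from 937 to 1599, SPF ZT6 from 988 to 1830, SPF ZT22 from 449 to 1016, GF ZT2 from 572 to 1104, GF ZT18 from 1124 to 1870 and GF ZT22 from 603 to 1024. With library totals SPF ZT22 had 854, GF ZT2 882, GF ZT18 2350 and GF ZT22 1126 genes, and DESeq2 gave 690 at SPF ZT22. With 3 mice per group and ZT, small differences at a single ZT were not detectable.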
